A study of Arabidopsis thaliana with 18 samples.

Results

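The genes described here are 10 genes of cytokinin metabolism in Arabidopsis thaliana, chosen by their identifiers: the LOG genes LOG1 (AT2G28305), LOG2 (AT2G35990), LOG3 (AT2G37210), LOG4 (AT3G53450), LOG5 (AT4G35190), LOG7 (AT5G06300) and LOG8 (AT5G11950), the isopentenyltransferase gene IPT3 (AT3G63110), and the cytokinin oxidase genes CKX3 (AT5G56970) and CKX5 (AT1G75450). They are 10 of the 37336 genes counted. In the TAIR10.1 annotation LOG5 lies at chr4:16746189-16748455, LOG1 at chr2:12081023-12084678, LOG3 at chr2:15623928-15627032 and CKX5 at chr1:28314458-28318375. RNA-seq was performed on inflorescence shoots of 42-day-old plants grown in short days, after leaves and roots had been removed, to ask which genes respond to a photoperiod that induces the florigen FT and how the response depends on FT and on its antagonist TFL1. Plants of 3 genotypes, all in the Columbia background, were collected with and without the treatment, with 3 biological replicates for each of the 6 conditions. The tfl1 plants carried the severe allele tfl1-1, the ft plants the null allele ft-10, and the wild type (WT) was Col-0. Treated plants received a single far-red-enriched photoperiod (FRP) of 24 h that began at the end of the short day, while untreated plants stayed in short days over the same 24 h. Treated plants therefore differed from untreated ones in night length, light intensity and spectrum at once, and these cannot be told apart.

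Cytokinins are adenine-derived hormones that promote cell division in shoot meristems. IPT enzymes add the isoprenoid side chain to adenine nucleotides, which is the first step of synthesis. LOG enzymes, named after the rice gene LONELY GUY, cleave the resulting riboside monophosphates and release the active free bases. CKX enzymes remove the side chain and so degrade the hormone. In Arabidopsis, loss of CKX3 and CKX5 together enlarges the inflorescence meristem.

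The 18 libraries held 20470477 to 35851716 gene counts each (median 30942643.5). The main tests used the 12 libraries, 2 per condition, that the labels mark as analysed for differential expression, and the other 6 served for comparison. Untreated WT replicate 1, one of those 6, stood apart: its rank correlation across genes with the nearest library of its own condition was 0.9365, against 0.9792 with an untreated ft library, whereas each of the other 17 libraries reached at least 0.9927 within its condition. It is not among the 12, so that all main values are without it. The 12 hold untreated WT replicates 2 and 3, whose nearest libraries of another condition were at 0.978 and 0.9711. These correlations do not show which untreated WT libraries are atypical. FT had 27 to 36 counts in FRP-treated ft and 11 to 22 counts in untreated ft, against 0 to 3 counts in every tfl1 and WT library. TFL1 had 1461 to 1647 counts in FRP-treated tfl1, against 172 to 208 in untreated tfl1. TFL1 counts were also higher after FRP in ft (325 to 366, against 114 to 149) and in WT (297 to 451, against 66 to 210). A count per gene does not show whether a transcript is intact. The FT counts separate the ft libraries from the rest, but the FT and TFL1 counts do not check either allele. The meristem genes STM and KNAT1 were abundant (STM at 90.4 CPM or more and KNAT1 at 37.9 CPM or more in every library), while the stem cell markers WUS and CLV3 had at most 18 and 15 counts. CPM denotes gene counts scaled to a common library total by TMM. The samples are bulk tissue, in which fewer cells of a type and less RNA per cell cannot be told apart.

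The sequences 250 bases upstream of the annotated start of LOG5, LOG1 and CKX5 are given because these are the most strongly induced LOG gene, the most strongly lowered LOG gene and the degradation gene with the higher level. They were taken from the RefSeq annotation of TAIR10.1 and run 5′ to 3′ on the strand of the gene, with every ACGT in capitals. ACGT is the core of many sites that bZIP transcription factors, the class to which FD belongs, recognise. The LOG5 window lies at chr4:16745939-16746188 (plus strand), that of LOG1 at chr2:12080773-12081022 (plus strand) and that of CKX5 at chr1:28318376-28318625 (minus strand).
LOG5: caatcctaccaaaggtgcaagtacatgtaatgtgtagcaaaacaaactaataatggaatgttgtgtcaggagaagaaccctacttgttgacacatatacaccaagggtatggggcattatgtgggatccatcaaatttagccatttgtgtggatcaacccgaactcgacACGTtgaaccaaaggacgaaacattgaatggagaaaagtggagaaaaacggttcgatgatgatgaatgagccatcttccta
LOG1: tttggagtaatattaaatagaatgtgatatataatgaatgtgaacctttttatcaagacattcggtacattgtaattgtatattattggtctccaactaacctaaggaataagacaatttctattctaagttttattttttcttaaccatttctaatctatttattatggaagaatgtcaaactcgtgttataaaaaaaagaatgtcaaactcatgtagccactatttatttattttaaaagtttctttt
CKX5: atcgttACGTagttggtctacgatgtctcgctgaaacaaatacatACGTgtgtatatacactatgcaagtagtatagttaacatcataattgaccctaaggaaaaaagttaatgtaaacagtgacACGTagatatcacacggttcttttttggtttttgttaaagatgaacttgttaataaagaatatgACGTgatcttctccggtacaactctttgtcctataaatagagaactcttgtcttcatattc

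The motif ACGT, which reads the same on both strands, occurred once upstream of LOG5, starting at base -81 from the gene start. It occurred at -244, -205, -125 and -61 in CKX5. The LOG1 window held none. Of the 9 LOG and CKX genes, 5 had at least 1 ACGT (LOG3, LOG4, LOG5, LOG8 and CKX5), beside 44.1% of the 27443 upstream windows of the same length in the annotation, and 1 had at least 2, beside 14.9% of all windows. The G-box CACGTG, which contains ACGT, was found in 1 window, that of LOG4, and in 6.49% of all windows. The C-box GACGTC was found in none of the 9 and in 2.27% of all windows. A match is a description of the letters and not a binding site.

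Transcript levels were compared between genes as CPM per kb of transcript. LOG8 was the highest of the 10 in every condition, at 40.0 ± 2.34 CPM per kb in FRP-treated tfl1, 40.8 ± 1.68 in untreated tfl1, 45.1 ± 1.24 in FRP-treated ft, 37.6 ± 0.663 in untreated ft, 41.6 ± 1.16 in FRP-treated WT and 42.0 ± 6.67 in untreated WT (SD, n = 3 each). IPT3 had rank 2 in every condition but untreated WT, where LOG1 at 11.4 ± 0.566 and LOG3 at 8.34 ± 2.41 CPM per kb preceded IPT3 at 5.7 ± 0.661. IPT3 and LOG1 did not differ beyond their spread in untreated tfl1 (11.8 ± 3.14 and 10.9 ± 0.328 CPM per kb). LOG5 moved most in the order: it had rank 3 in FRP-treated tfl1 (16.7 ± 0.444 CPM per kb) and FRP-treated WT (12.4 ± 0.917), rank 6 in untreated tfl1 (1.8 ± 0.227), rank 7 in FRP-treated ft (1.73 ± 0.232), and rank 8 in untreated ft (1.12 ± 0.239) and untreated WT (1.41 ± 0.0503). In untreated WT, LOG5 and LOG7 (1.41 ± 0.298) had the same mean, and in untreated ft LOG5, LOG7 (1.29 ± 0.161) and CKX5 (1.33 ± 0.134) lay within their spread of each other. CKX3 had rank 9 throughout, at 0.201 to 0.473 CPM per kb.

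LOG2 was at the limit of detection. It had 5 counts over the 18 libraries, in 5 libraries with 1 count each, below the 3 counts that a count of 0 allows, which corresponds to 0.0825 to 0.143 CPM in these libraries. This limit covers counting error only. LOG2 was below the minimum of 10 counts in at least 2 libraries and was not tested, so that 9 of the 10 genes entered the tests over 21277 genes.

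FRP changed the cytokinin genes in different directions. In WT, LOG5 and IPT3 rose, LOG1, LOG3 and CKX3 fell, and LOG4, LOG7, LOG8 and CKX5 did not pass the threshold. In tfl1, LOG5, IPT3, CKX5 and LOG4 rose and LOG1 and LOG3 fell. In ft, CKX5 and LOG8 rose and LOG3 fell, and neither LOG5 nor IPT3 passed. A change was called at an adjusted p of at most 0.005 in the quasi-likelihood test of edgeR, adjusted over all genes tested by the Benjamini-Hochberg method. By this rule 2 of the 9 genes were higher after FRP in WT, where 33% of all genes were called higher, and 3 were lower, where 33.4% were. In tfl1, 4 were higher and 2 lower, beside 24.6% and 21.5% of all genes, and in ft 2 were higher and 1 lower, beside 12.8% and 12.6%. The median log2 fold change of the 9 genes was 0.71 in tfl1, 0.26 in ft and -0.17 in WT, beside 0.02, -0.01 and -0.02 over all genes. The counts in WT were 3 higher and 3 lower both with library totals in place of TMM and after trends on transcript length and GC content were removed (56.5% of all genes called in either direction), and in ft 1 and 1 under either (25.4% of all genes after trend removal). The share of all genes with library totals is not given. In tfl1 they were again 4 and 2 after trend removal (42.2% of all genes), with LOG8 among the higher genes in place of CKX5. In WT the groups of 3 libraries did not overlap for LOG1, LOG3, LOG5, IPT3 and CKX5, and 62.2% of genes had no such overlap in that comparison. In tfl1 the groups did not overlap for 7 genes (LOG1, LOG3, LOG4, LOG5, LOG7, IPT3 and CKX5), beside 70.8% of genes, and in ft for 7 (LOG1, LOG3, LOG4, LOG5, LOG8, CKX3 and CKX5), beside 58.7%.

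**Figure D1:**
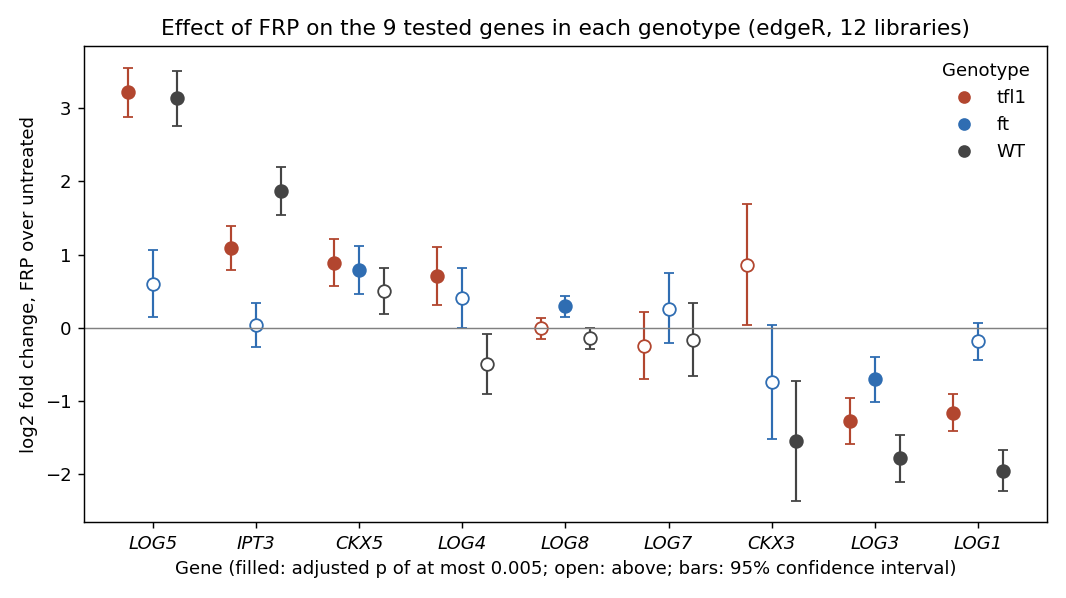
Log2 fold change of FRP over untreated plants (vertical axis) for the 9 tested genes in tfl1, ft and WT, from edgeR with 2 libraries per condition; bars are 95% confidence intervals and filled points have an adjusted p of at most 0.005. LOG5 lies at 3.22 in tfl1 and 3.14 in WT but at 0.60 in ft, and LOG1 at -1.17, -1.96 and -0.19.

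IPT3, which encodes an adenylate isopentenyltransferase that acts largely in phloem and responds to nitrate, was induced by FRP in WT and in tfl1. In tfl1 it had 34.7, 42.5 and 38.5 CPM after FRP, against 14.1, 24.5 and 20.4 CPM without. In WT it had 36.2, 40.5 and 37.1 CPM after FRP, against 8.45, 10.6 and 9.39 CPM without. The treated and untreated libraries did not overlap in either genotype, and the treated levels of tfl1 and WT overlapped each other. In ft, by contrast, the 20.1, 23.2 and 22.2 CPM after FRP overlapped the 14.8, 21.7 and 19.4 CPM without.

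IPT3 rose 2.13-fold in tfl1 (log2 fold change 1.09, SE 0.14, edgeR adjusted p = 3.73e-05) and 3.65-fold in WT (1.87, SE 0.15, edgeR adjusted p = 4.25e-07). The effects in tfl1 and WT differed by -0.78 (SE 0.21, 95% confidence interval -1.23 to -0.33). This missed the threshold (edgeR adjusted p = 0.00864) but passed with DESeq2 (-0.82, DESeq2 adjusted p = 0.00128). The value in ft was 0.04 (SE 0.14, 95% confidence interval -0.27 to 0.34, edgeR adjusted p = 0.85). The effect in ft differed from that in WT by -1.83 on the log2 scale (SE 0.21, edgeR adjusted p = 8.88e-06), and the effect in tfl1 differed from that in ft by 1.05 (SE 0.20, edgeR adjusted p = 0.000775). The last of these was lost in all 18 libraries (0.75, edgeR adjusted p = 0.0222) and, narrowly, without untreated ft replicate 2 (highest edgeR adjusted p = 0.00547).

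IPT3 differed between genotypes in the untreated plants as well. IPT3 was 1.71-fold higher in untreated tfl1 than in untreated WT (log2 fold change 0.77, SE 0.16, edgeR adjusted p = 0.0021) and 2.05-fold higher in untreated ft (1.03, SE 0.15, edgeR adjusted p = 0.0002). All 3 untreated libraries of each mutant lay above all 3 of WT, with the lowest tfl1 library at 14.1 CPM, the lowest ft library at 14.8 CPM and the highest WT library at 10.6 CPM. Between untreated groups 28.6% of all genes were without overlap for tfl1 and 17.5% for ft. After FRP, tfl1 and WT were within 0.01 of each other on the log2 scale (-0.01, 95% confidence interval -0.30 to 0.29), while ft was lower than WT (-0.80, SE 0.14, edgeR adjusted p = 0.000295). Calls in untreated plants were the less stable ones: that of tfl1 was lost without untreated WT replicate 2, untreated WT replicate 3 or untreated tfl1 replicate 3 (highest edgeR adjusted p = 0.0236), and that of ft was lost in all 18 libraries (0.97, edgeR adjusted p = 0.00914) but not in the 17 without untreated WT replicate 1 (0.89, edgeR adjusted p = 0.00178).

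Markers of the vasculature moved with IPT3 in part. The summed level of the phloem markers SUC2, APL, SEOR1 and RTM1 was 187 to 240 CPM in FRP-treated WT and 45.3 to 76.7 CPM in untreated WT. In tfl1 the sums were 90.3 to 179 CPM after FRP and 75.1 to 93.7 CPM without, and in ft 85.1 to 126 CPM and 71.2 to 81.7 CPM. RTM1 was listed at 0 in all 18 libraries, and of the other 3 markers all 3 rose in WT, 1 (SEOR1) rose in tfl1 and none passed in ft. Of the xylem markers CESA4, CESA7, CESA8 and VND7, 3 of 4 rose in WT, 2 of 4 in tfl1 and 0 of 4 in ft, with sums of 99.8 to 144 CPM in FRP-treated WT and 30.3 to 33.6 CPM in untreated WT. The xylem sums in tfl1 were 45.1 to 97.8 CPM after FRP and 29.1 to 35.8 CPM without. In ft they were 44.4 to 68.1 CPM and 34.7 to 39.6 CPM. In untreated plants SUC2, the phloem sucrose transporter gene, was also higher in tfl1 (log2 fold change 0.91, edgeR adjusted p = 0.000752) and in ft (0.63, edgeR adjusted p = 0.00444) than in WT. APL (0.32 in tfl1 and 0.22 in ft), SEOR1 (0.21 and 0.82) and the xylem markers did not pass there. After FRP, SUC2 (-0.87), CESA4 (-0.83), CESA7 (-1.18) and CESA8 (-1.35) were lower in tfl1 than in WT, and APL, SEOR1 and VND7 did not pass. In FRP-treated ft, 3 of 3 tested phloem markers and 3 of 4 xylem markers were lower than in WT. The part of these cells in the IPT3 result was not tested.

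LOG5, a cytokinin-activating enzyme gene, showed the largest change of the 9 tested genes. It had 27.2, 25.8 and 26.6 CPM in FRP-treated tfl1, against 2.54, 2.77 and 3.25 CPM in untreated tfl1. FRP-treated WT had 21.3, 18.6 and 19.0 CPM, against 2.15, 2.28 and 2.29 CPM in untreated WT. The lowest treated library was several times the highest untreated one in both genotypes. FRP-treated ft had 2.33, 3.02 and 2.89 CPM, against 1.88, 1.35 and 2.09 CPM in untreated ft, so that these groups too did not overlap but differed by about 1 CPM.

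**Figure D2:**
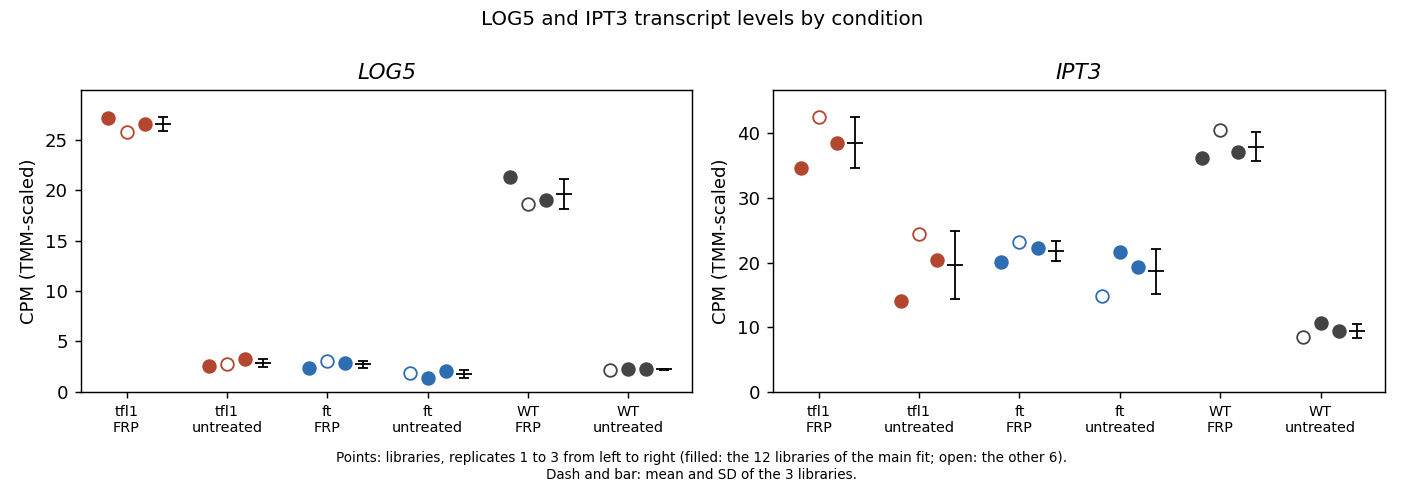
TMM-scaled CPM (vertical axis) of LOG5 and IPT3 in each of the 18 libraries by condition, with the mean and SD of 3 libraries beside the points; filled points are the 12 libraries of the main tests. LOG5 lies between 18.6 and 27.2 CPM in FRP-treated tfl1 and WT and at 3.25 CPM or less in the other 4 conditions, whereas IPT3 differs between genotypes without treatment as well.

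The rise of LOG5 was 9.31-fold in tfl1 (log2 fold change 3.22, SE 0.15, edgeR adjusted p = 2.92e-08) and 8.79-fold in WT (3.14, SE 0.17, edgeR adjusted p = 3.45e-08). In ft the estimate was 1.52-fold (0.60, SE 0.21, 95% confidence interval 0.14 to 1.06), which did not pass (edgeR adjusted p = 0.0344), although it did in the 17 libraries without untreated WT replicate 1 (0.63, edgeR adjusted p = 0.00333). The effect in ft was smaller than in WT by 2.53 on the log2 scale (-2.53, SE 0.28, edgeR adjusted p = 7.9e-06), and the effect in tfl1 exceeded that in ft by 2.62 (SE 0.27, edgeR adjusted p = 2.11e-05). Between tfl1 and WT the effects differed by 0.08, with a 95% confidence interval of -0.45 to 0.62.

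LOG5 did not pass between untreated genotypes (0.33 for tfl1 over WT and -0.41 for ft over WT on the log2 scale, edgeR adjusted p = 0.206 and 0.144). After FRP it was 7.69-fold lower in ft than in WT (log2 fold change -2.94, SE 0.16, edgeR adjusted p = 3.94e-07). All 3 FRP-treated tfl1 libraries were above all 3 FRP-treated WT libraries, but the difference of 0.42 (SE 0.13) missed the threshold (edgeR adjusted p = 0.0228), and 31.9% of all genes were without overlap in that comparison. No called LOG5 comparison was lost when any of the 12 libraries was left out, in all 18 libraries, with DESeq2 or after removal of the length and GC trends. The summed level of 6 shoot meristem markers was also higher after FRP, at 528 to 606 CPM against 333 to 340 CPM in tfl1 and 514 to 586 CPM against 322 to 358 CPM in WT, and likewise 483 to 503 CPM against 331 to 337 CPM in ft, where LOG5 did not pass in the 12 libraries. Of the 5 markers tested, 2 rose in tfl1 (STM and KNAT1), 2 rose and 1 fell (ANT) in ft, and 3 rose and 2 fell (CLV3 and ANT) in WT. Their part in the LOG5 result was not tested.

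LOG1 was lowered by FRP, most in WT, less in tfl1 and not detectably in ft. It had 7.39, 6.43 and 7.33 CPM in FRP-treated tfl1, against 16.7, 15.7 and 16.4 CPM in untreated tfl1. FRP-treated WT had 5.07, 4.10 and 3.81 CPM, against 16.9, 16.4 and 18 CPM in untreated WT. Neither pair of groups overlapped, and the treated tfl1 libraries were all above the treated WT libraries. In ft the levels were 12.2, 11.8 and 10.6 CPM after FRP and 12.6, 13.3 and 12.7 CPM without, again without overlap but close together.

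LOG1 fell by 1.17 on the log2 scale in tfl1 (SE 0.12, edgeR adjusted p = 6.05e-06) and by 1.96 in WT (SE 0.13, edgeR adjusted p = 1.06e-07), which are 2.25-fold and 3.9-fold decreases. In ft the value was -0.19 (95% confidence interval -0.44 to 0.06, edgeR adjusted p = 0.194). The effect in ft differed from that in WT by 1.77 (SE 0.17, edgeR adjusted p = 3.16e-06), that in tfl1 from that in WT by 0.79 (SE 0.17, edgeR adjusted p = 0.00312), and that in tfl1 from that in ft by -0.98 (SE 0.16, edgeR adjusted p = 0.000355). After removal of the length and GC trends the fall in WT was smaller (-1.34, edgeR adjusted p = 1.75e-06), and only the first of these 3 differences passed (0.94, edgeR adjusted p = 0.000619), with 0.56 (0.0245) and -0.38 (0.079) for the others. The difference between tfl1 and WT was also lost without untreated ft replicate 2 or 3, untreated WT replicate 3, FRP-treated WT replicate 3 or any of the 4 tfl1 libraries used (highest edgeR adjusted p = 0.0216).

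Between untreated plants LOG1 differed from WT by -0.05 in tfl1 and by -0.40 in ft on the log2 scale, neither past the threshold (edgeR adjusted p = 0.713 and 0.0092). After FRP, LOG1 was higher in tfl1 (0.74, SE 0.13, edgeR adjusted p = 0.00228) and in ft (1.37, SE 0.13, edgeR adjusted p = 5.81e-06) than in WT. The call for tfl1 was lost after trend removal (0.61, edgeR adjusted p = 0.00706) and without FRP-treated WT replicate 3 or either treated tfl1 library used (highest edgeR adjusted p = 0.0206).

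LOG3 was lower after FRP in all 3 genotypes. Its levels were 3.80, 3.38 and 3.22 CPM in FRP-treated tfl1, against 8.54, 8.73 and 8.56 CPM in untreated tfl1. In ft they were 3.81, 3.77 and 4.33 CPM after FRP, against 7.19, 6.38 and 6.90 CPM without. FRP-treated WT had 3.62, 2.53 and 2.92 CPM, against 6.68, 10.4 and 12.2 CPM in untreated WT, of which the lowest was the replicate that stood apart. None of these pairs overlapped. The fall was 2.43-fold in tfl1 (-1.28, SE 0.14, edgeR adjusted p = 1.26e-05), 1.63-fold in ft (-0.71, SE 0.14, edgeR adjusted p = 0.00193) and 3.46-fold in WT (-1.79, SE 0.15, edgeR adjusted p = 4.51e-07). With the length and GC trends removed the value in WT was -1.14 (edgeR adjusted p = 2.11e-05).

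**Figure D3:**
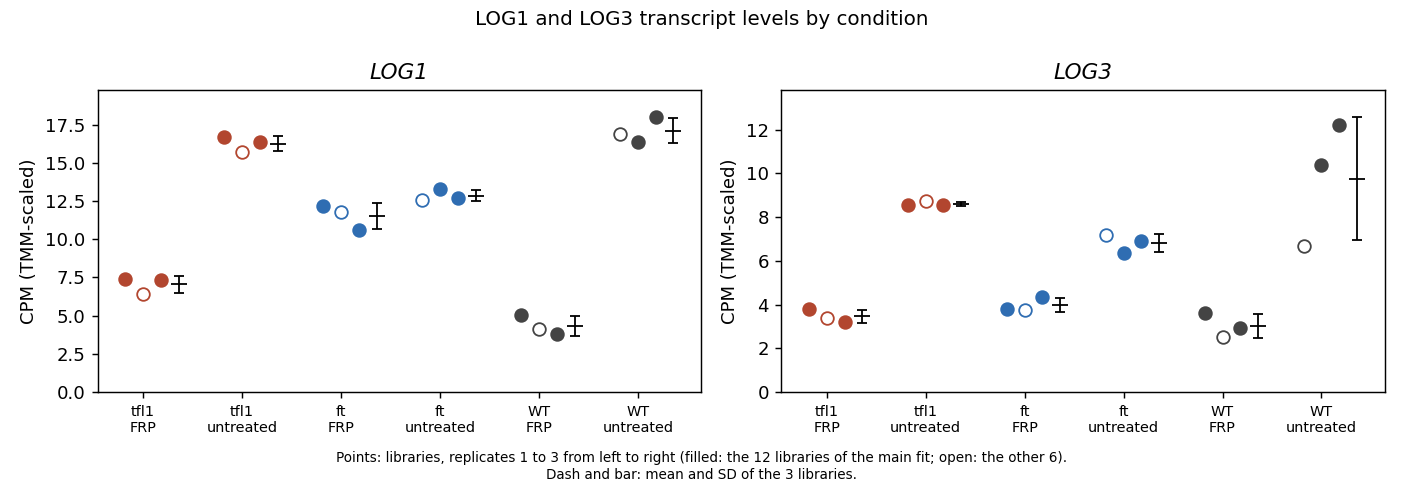
TMM-scaled CPM (vertical axis) of LOG1 and LOG3 in each of the 18 libraries by condition, with the mean and SD of 3 libraries beside the points; filled points are the 12 libraries of the main tests. LOG1 in ft stays between 10.6 and 13.3 CPM with and without FRP, while LOG3 is at 4.33 CPM or less in every treated library.

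The fall of LOG3 in ft was smaller than in WT by 1.09 on the log2 scale (SE 0.21, edgeR adjusted p = 0.000483), while tfl1 differed from WT by 0.51 (95% confidence interval 0.06 to 0.96) and from ft by -0.58 (95% confidence interval -1.01 to -0.14), neither past the threshold (edgeR adjusted p = 0.0579 and 0.0265). The difference between ft and WT did not hold after the length and GC trends were removed (0.18, edgeR adjusted p = 0.477) nor in all 18 libraries (0.91, edgeR adjusted p = 0.00728, against 4.12e-05 in the 17 without untreated WT replicate 1), and the call within ft was lost without any 1 of the 4 ft libraries used (highest edgeR adjusted p = 0.0233). Without treatment, LOG3 was 1.70-fold lower in ft than in WT (-0.76, SE 0.13, edgeR adjusted p = 0.000511), a call that was lost in all 18 libraries (-0.52, edgeR adjusted p = 0.0926), after trend removal (-0.37, edgeR adjusted p = 0.0417), and without untreated ft replicate 2 or untreated WT replicate 3 (highest edgeR adjusted p = 0.00855). Untreated tfl1 was 0.40 lower (edgeR adjusted p = 0.0256). After FRP the 3 genotypes lay between 2.53 and 4.33 CPM and no genotype difference passed. The summed level of 4 leaf photosynthesis markers, of which 1 (LHB1B2) was at 0 in all libraries, was also lower after FRP, at 1061 to 1248 CPM against 3316 to 3613 CPM in tfl1, 2565 to 2804 CPM against 3559 to 3729 CPM in ft, and 899 to 1482 CPM against 2727 to 4341 CPM in WT. Of the 3 markers tested, CAB2 and RBCS1A fell in tfl1 and in WT and none passed in ft, and RCA had log2 fold changes of -0.02 in tfl1, 0.25 in ft and 0.47 in WT, none past the threshold. Their part in the LOG1 and LOG3 results was not tested.

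With LOG5 rising where LOG1 and LOG3 fell, the makeup of the transcripts of the 7 LOG genes differed more between conditions than their sum. LOG6, at 1.1 to 5.77 CPM over the libraries, is not among these 7 and is in neither the sum nor the shares. The summed level of the 7 LOG genes was 69.9 ± 3.53 CPM per kb in FRP-treated tfl1 and 65.0 ± 1.97 in untreated tfl1, 62.5 ± 1.44 in FRP-treated ft and 56.7 ± 0.485 in untreated ft, and 63.6 ± 0.897 in FRP-treated WT and 68.4 ± 10.1 in untreated WT (SD, n = 3 each). LOG5 made up 23.3 to 24.4% of the sum in FRP-treated tfl1, against 2.39 to 3.16% in untreated tfl1. In WT its share was 18.6 to 20.7% after FRP, against 1.87 to 2.36% without. These shares did not overlap in either genotype. In ft LOG5 held 2.29 to 3.1% after FRP, against 1.51 to 2.34% without.

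LOG1 held 6.46 to 7.03% of the sum in FRP-treated tfl1, against 16.6 to 16.8% in untreated tfl1, and 4.02 to 5.23% in FRP-treated WT, against 15.4 to 19.6% in untreated WT. LOG3 held 3.96 to 4.41% in FRP-treated tfl1, against 10.9 to 11.8% in untreated tfl1, and 3.43 to 4.79% in FRP-treated WT, against 9.96 to 13.5% in untreated WT. LOG8 remained the largest part, with 56.5 to 57.7% in FRP-treated tfl1 as the lowest and 71.3 to 72.9% in FRP-treated ft as the highest share. These shares are a description over 3 libraries per condition and were not tested.

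**Figure D4:**
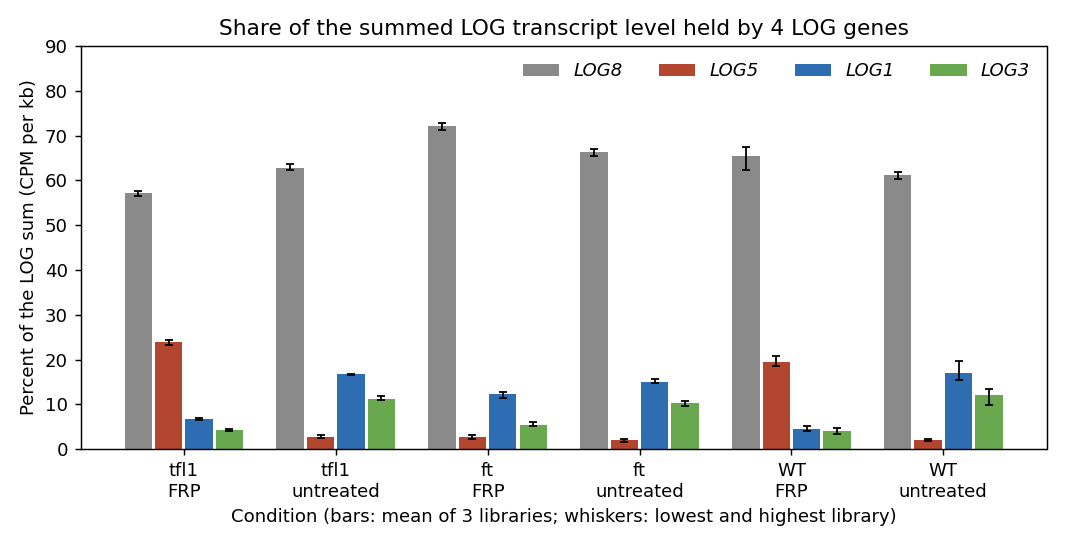
Percent of the summed transcript level of 7 LOG genes (CPM per kb, vertical axis) held by LOG8, LOG5, LOG1 and LOG3 in each condition; bars are means of 3 libraries and whiskers the lowest and highest library. LOG5 takes 18.6 to 24.4% in FRP-treated tfl1 and WT and at most 3.16% elsewhere.

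LOG4, which acts in the shoot meristem, and LOG8 showed smaller differences. LOG4 had 4.03, 3.82 and 3.16 CPM in FRP-treated tfl1, against 2.28, 2.05 and 2.13 CPM in untreated tfl1. In ft it had 2.87, 2.93 and 2.51 CPM after FRP, against 1.94, 2.08 and 1.99 CPM without. In WT the 2.88, 1.96 and 2.42 CPM after FRP overlapped the 2.77, 4.10 and 3.34 CPM without. LOG4 rose 1.63-fold in tfl1 (0.71, SE 0.18, edgeR adjusted p = 0.00472) and was not past the threshold in ft (0.40, SE 0.19, edgeR adjusted p = 0.103) or in WT (-0.50, SE 0.19, edgeR adjusted p = 0.0269). The effect in tfl1 exceeded that in WT by 1.21 (SE 0.26, edgeR adjusted p = 0.00266), and that in ft did so by 0.90 (SE 0.26), just short of the threshold (edgeR adjusted p = 0.00897).

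The LOG4 calls rested on 60 to 138 counts in each of the 12 libraries and were not stable. With the length and GC trends removed, the rise in tfl1 was kept (0.99, edgeR adjusted p = 0.000269). The difference between tfl1 and WT was then lost (0.83, edgeR adjusted p = 0.0153), the value in WT turned to 0.16 and the difference between ft and WT was 0.08 (edgeR adjusted p = 0.8). In all 18 libraries the rise in tfl1 (0.77, edgeR adjusted p = 0.00097) and the difference between tfl1 and WT (1.26, edgeR adjusted p = 0.00221) were kept. The difference between ft and WT passed there (0.96, edgeR adjusted p = 0.00351). With DESeq2 the rise in tfl1 and the difference between tfl1 and WT were lost (adjusted p = 0.0173 and 0.0064). The rise in tfl1 was called in 3 of the 12 fits that each left out 1 library (highest edgeR adjusted p = 0.0737), being kept only without untreated WT replicate 2, untreated WT replicate 3 or FRP-treated tfl1 replicate 3, and the difference between tfl1 and WT in 5 of them (highest edgeR adjusted p = 0.0165), being lost without untreated ft replicate 2 or 3, untreated WT replicate 2, FRP-treated WT replicate 3, untreated tfl1 replicate 1 or 3, or FRP-treated tfl1 replicate 1. LOG4 was also lower in untreated ft than in untreated WT (-0.88, SE 0.19, edgeR adjusted p = 0.00206), which was lost in all 18 libraries (-0.77, edgeR adjusted p = 0.0227) but not in the 17 without untreated WT replicate 1 (-0.90, edgeR adjusted p = 0.000432), after trend removal (-0.56, edgeR adjusted p = 0.0229), and without untreated ft replicate 2 or 3 or untreated WT replicate 2 (highest edgeR adjusted p = 0.0254). In untreated tfl1 the difference from untreated WT was of similar size but missed the threshold (-0.76, SE 0.19, edgeR adjusted p = 0.00634). These groups of 3 libraries did not overlap, as for 28.6% of all genes. It passed in the 17 libraries (-0.79, edgeR adjusted p = 0.00135) but not in all 18 (-0.66, edgeR adjusted p = 0.0109). The annotated LOG4 gene overlaps a gene on the opposite strand by 1 base.

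LOG8 had 62.4, 55.5 and 59.3 CPM in FRP-treated tfl1, against 63.0, 58.1 and 59.8 CPM in untreated tfl1, and 59.5, 62.7 and 62.2 CPM in FRP-treated WT, against 51.1, 64.8 and 70.3 CPM in untreated WT. These groups overlapped. In ft it had 68.4, 64.7 and 66.5 CPM after FRP, against 56.1, 56.2 and 54.4 CPM without, a 1.22-fold rise (0.29, SE 0.07, edgeR adjusted p = 0.00463) that exceeded the effect in WT by 0.43 (SE 0.09, edgeR adjusted p = 0.00138). Untreated ft was lower than untreated WT (-0.29, SE 0.07, edgeR adjusted p = 0.00331). None of these 3 calls held in all 18 libraries (edgeR adjusted p = 0.0493, 0.0838 and 0.246), and all 3 held in the 17 without untreated WT replicate 1 (0.00189, 0.000711 and 0.00193).

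Removing the length and GC trends turned LOG8 round: the effect of FRP became 0.31 in tfl1 and 0.33 in WT, both past the threshold (edgeR adjusted p = 0.00072 and 0.000394), beside -0.01 and -0.15 before, and the difference between ft and WT became -0.23. The rise in ft was lost (0.10, edgeR adjusted p = 0.198), as was the difference between untreated ft and WT (0.03, edgeR adjusted p = 0.759). Leaving out 1 library also mattered, since the rise in ft was kept only without untreated WT replicate 2 or untreated WT replicate 3 (highest edgeR adjusted p = 0.0514). The difference between ft and WT was lost without untreated ft replicate 3, FRP-treated ft replicate 1, untreated WT replicate 3 or FRP-treated WT replicate 1 (highest edgeR adjusted p = 0.00916), and the untreated difference was kept in 5 of 12 fits (highest edgeR adjusted p = 0.0456), being lost without untreated ft replicate 2 or 3, untreated WT replicate 3, FRP-treated WT replicate 1 or 3, or FRP-treated tfl1 replicate 1 or 3.

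LOG7, another LOG gene with a role in the shoot meristem, lay between 1.42 and 2.28 CPM in all 18 libraries and passed the threshold in none of the 10 comparisons. Its log2 fold changes on FRP were -0.25 in tfl1, 0.26 in ft and -0.17 in WT, with 95% confidence intervals of -0.70 to 0.21, -0.21 to 0.74 and -0.67 to 0.34. At 38 to 77 counts in each of the 12 libraries, small changes were not detectable, and changes within these intervals remain possible.

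The degradation gene CKX5 had higher levels after FRP in every genotype, although the value in WT turned negative when the length and GC trends were removed. It had 7.36, 8.08 and 6.23 CPM in FRP-treated tfl1, against 3.25, 4.10 and 4.10 CPM in untreated tfl1. In ft it had 6.56, 6.82 and 6.46 CPM after FRP, against 3.24, 3.97 and 3.58 CPM without. In WT the levels were 8.81, 8.78 and 8.16 CPM after FRP, against 5.73, 5.54 and 6.48 CPM without. No pair of groups overlapped.

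CKX5 rose 1.86-fold in tfl1 (0.89, SE 0.15, edgeR adjusted p = 0.000235) and 1.72-fold in ft (0.79, SE 0.15, edgeR adjusted p = 0.00125). The 1.42-fold difference in WT missed the threshold in the main test (0.50, SE 0.14, edgeR adjusted p = 0.00665) and passed in all 18 libraries (0.54, edgeR adjusted p = 0.00129). The 3 effects were not found to differ from each other, with differences of 0.39 between tfl1 and WT, 0.28 between ft and WT and 0.11 between tfl1 and ft (95% confidence intervals -0.06 to 0.84, -0.17 to 0.73 and -0.35 to 0.56). Without treatment CKX5 was lower in tfl1 (-0.71, SE 0.15, edgeR adjusted p = 0.00319) and in ft (-0.66, SE 0.15, edgeR adjusted p = 0.00306) than in WT, and no library of either mutant reached the lowest WT library. After FRP it was 0.32 lower in tfl1 and 0.38 lower in ft, neither past the threshold (edgeR adjusted p = 0.0845 and 0.0259).

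**Figure D5:**
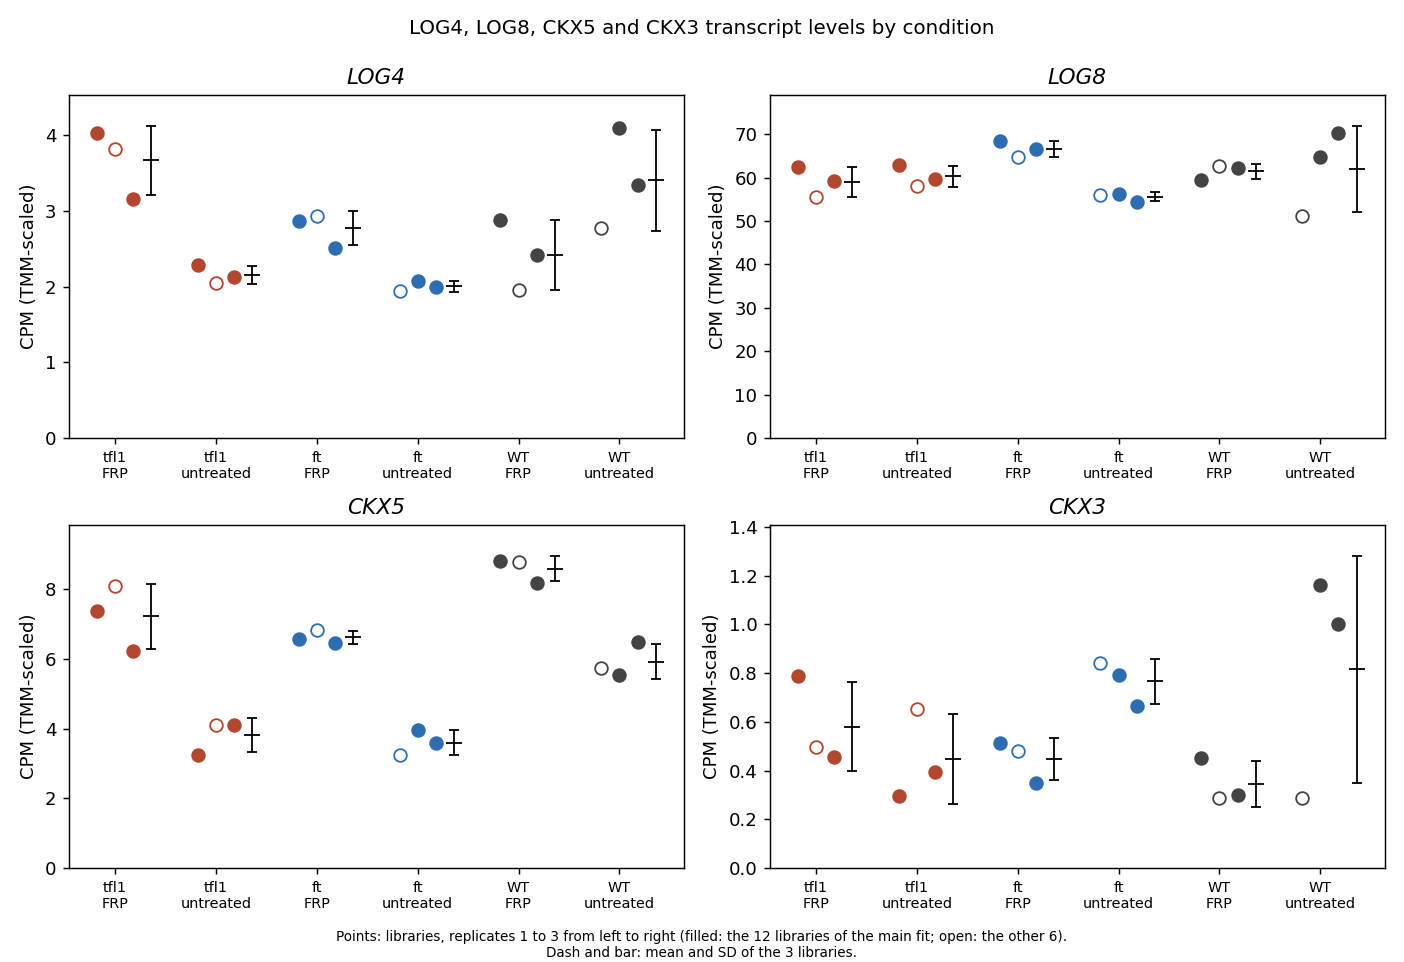
TMM-scaled CPM (vertical axis) of LOG4, LOG8, CKX5 and CKX3 in each of the 18 libraries by condition, with the mean and SD of 3 libraries beside the points; filled points are the 12 libraries of the main tests. CKX5 lies at 6.23 CPM or more in every treated library, and untreated tfl1 and ft at 4.10 CPM or less lie below untreated WT at 5.54 CPM or more.

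With 2711 bases, CKX5 has the longest transcript of the 10 genes, and after removal of the length and GC trends its value in WT changed sign to -0.39 (edgeR adjusted p = 0.0272). The rise in tfl1 was then short of the threshold (0.45, edgeR adjusted p = 0.0195), that in ft was kept (0.94, edgeR adjusted p = 0.000305) and differed from WT by 1.33 (edgeR adjusted p = 0.000136). The rise in ft was lost without any 1 of the 4 ft libraries used (highest edgeR adjusted p = 0.0186). Among untreated plants the lower level in tfl1 was kept in all 18 libraries (-0.63, edgeR adjusted p = 0.00284) and after trend removal (-0.92, edgeR adjusted p = 0.000487). Of the fits that left out 1 library, it was called only in those without untreated tfl1 replicate 3 or FRP-treated tfl1 replicate 3 (-0.88 to -0.54 over these fits). The lower level in ft was lost without untreated ft replicate 2 or 3, untreated WT replicate 2 or 3, or FRP-treated WT replicate 1 or 3 (-0.78 to -0.55 over these fits). It was also lost in all 18 libraries (-0.72, edgeR adjusted p = 0.00786). It was kept in the 17 without untreated WT replicate 1 (-0.74, edgeR adjusted p = 0.000536) and after trend removal (-1.21, edgeR adjusted p = 8.34e-05). CKX5 overlaps 3 other annotated genes, one of them on the opposite strand over 665 bases, and the counting did not use strand, so that its counts are uncertain to that extent.

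CKX3, the other oxidase gene, had 6 to 30 counts per library. It had 0.789, 0.495 and 0.456 CPM in FRP-treated tfl1, against 0.296, 0.652 and 0.394 CPM in untreated tfl1, and 0.453, 0.286 and 0.298 CPM in FRP-treated WT, against 0.286, 1.16 and 1.00 CPM in untreated WT. Both pairs overlapped over 3 libraries. In the 12 libraries CKX3 fell in WT (-1.55, SE 0.37, edgeR adjusted p = 0.00243), was lower in untreated tfl1 than in untreated WT (-1.65, SE 0.37, edgeR adjusted p = 0.0036), and its FRP effect in tfl1 exceeded that in WT by 2.41 (SE 0.53, edgeR adjusted p = 0.00332). The value in ft was -0.75 (SE 0.36, edgeR adjusted p = 0.107).

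All 3 CKX3 calls were lost in all 18 libraries (edgeR adjusted p = 0.0194, 0.134 and 0.074) and with DESeq2 (adjusted p = 0.0139, 0.0154 and 0.0123). Untreated WT replicate 1, at 0.286 CPM, was the difference between both sets in WT: without it, 17 libraries gave -1.64 for the fall in WT (edgeR adjusted p = 0.00046). The fall in WT was also lost without untreated WT replicate 2, untreated WT replicate 3 or FRP-treated WT replicate 3 (highest edgeR adjusted p = 0.0293). The untreated difference was kept in 4 of 12 fits, those without either FRP-treated ft library or either FRP-treated tfl1 library used (highest edgeR adjusted p = 0.0317), and the difference of effects in 3, those without either FRP-treated ft library or FRP-treated tfl1 replicate 3 (highest edgeR adjusted p = 0.0234).

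Across comparisons of untreated plants, 1 of the 9 genes was higher in tfl1 than in WT (IPT3) and 2 were lower (CKX3 and CKX5), beside 11.8% and 12.7% of all genes. In untreated ft, 1 was higher (IPT3) and 4 were lower (LOG3, LOG4, LOG8 and CKX5), beside 20.6% and 19.3%. These were 1 and 0 for tfl1 and 1 and 1 for ft with library totals in place of TMM (share of all genes not given), and for ft 1 and 1 after the length and GC trends were removed, where 25.5% of all genes were called, and 0 and 0 in all 18 libraries, where 0.41% were. After FRP, 1 was higher in tfl1 (LOG1) and none lower, beside 6.38% and 6.53% of all genes, and in ft 1 was higher (LOG1) and 2 lower (LOG5 and IPT3), beside 26.1% and 27%. The FRP effect was higher in tfl1 than in WT for 3 genes (LOG1, LOG4 and CKX3) and lower for none, beside 13.9% either way. In ft it was higher than in WT for 3 (LOG1, LOG3 and LOG8) and lower for 2 (LOG5 and IPT3), beside 29.2% either way, and in tfl1 it was higher than in ft for 2 (LOG5 and IPT3) and lower for 1 (LOG1), beside 20.5% and 19.8%. With the length and GC trends removed these became 1 and 0, 2 and 2, and 2 and 0, beside 23.9%, 42.5% and 28.6% of all genes called in either direction. The 3 comparisons share libraries, so that their counts are not independent.

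Length trends differed between conditions. Relative to the mean of all libraries, log2 counts changed by 0.2876 to 0.3135 per doubling of transcript length in FRP-treated WT and by -0.3671 to 0.08228 in untreated WT, by 0.05154 to 0.3367 in FRP-treated tfl1 and by -0.2524 to -0.09778 in untreated tfl1, and by -0.2108 to -0.0206 in FRP-treated ft and by -0.01434 to 0.0413 in untreated ft. The lowest and highest values in untreated WT were those of replicate 3 and of replicate 1, the library that stood apart. Replicate 2 had -0.3519, so that the untreated WT libraries of the main tests had the lowest values of all libraries. The trend and the treatment cannot be told apart in these libraries. Of the LOG5 and IPT3 effects of FRP none was lost on that removal, with 3.47 and 1.15 in tfl1 and 3.47 and 1.81 in WT on the log2 scale.

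Other genes of the pathway were counted by list, beside 24.6% of all genes called higher and 21.5% lower in tfl1, 12.8% and 12.6% in ft, and 33% and 33.4% in WT. Of 12 other synthesis and activation genes 7 were tested, of which 3 rose and 2 fell on FRP in WT, 2 rose and 1 fell in tfl1, and 2 rose and 1 fell in ft. IPT5, another adenylate isopentenyltransferase gene, rose in all 3 (0.77 in tfl1, 2.19 in ft and 2.88 in WT on the log2 scale, edgeR adjusted p = 3.28e-05, 1.8e-07 and 4.56e-09). IPT7 had 40 to 108 counts in FRP-treated tfl1 and 12 to 30 in untreated tfl1, 28 to 40 in FRP-treated ft and 3 to 4 in untreated ft, and 89 to 109 in FRP-treated WT and 0 to 16 in untreated WT. LOG6, a further LOG gene, fell in WT (-1.46, SE 0.24, edgeR adjusted p = 0.000131), as LOG1 and LOG3 did. Its levels after FRP and without were 2.61 to 3.83 CPM and 4.89 to 5.6 CPM in tfl1, and 2.89 to 3.69 CPM and 3.44 to 3.57 CPM in ft. Of 9 other degradation and conjugation genes 8 were tested, of which 2 rose and 3 fell in WT, 3 rose and 2 fell in tfl1, and 2 rose and 2 fell in ft. CKX1 rose in all 3 genotypes (2 in tfl1, 0.96 in ft and 2.79 in WT, edgeR adjusted p = 2.85e-07, 0.000161 and 2.54e-08) and CKX4 fell in WT (-2.01, edgeR adjusted p = 2.56e-06). Levels of CKX4 were also lower after FRP in the mutants. They were 1.06 to 1.23 CPM against 2.13 to 2.43 CPM in tfl1, and 2.54 to 3.16 CPM against 3.39 to 4.21 CPM in ft. UGT85A1, which encodes a zeatin O-glucosyltransferase, fell in all 3 genotypes (-1.73 in tfl1, -0.93 in ft and -2.77 in WT, edgeR adjusted p = 1.83e-06, 0.000256 and 3.38e-08).

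Perception genes were called in both directions. Of 16 listed genes of receptors, phosphotransfer proteins and type-B response regulators 15 were tested, and 8 rose and 4 fell in WT, 6 rose and 3 fell in tfl1, and 2 rose and 1 fell in ft. The largest change of this list in tfl1 was a fall of AHP4, a phosphotransfer protein gene, which had 0.321 to 0.495 CPM in FRP-treated tfl1, against 11.1 to 12.1 CPM in untreated tfl1 (-4.84, SE 0.25, edgeR adjusted p = 5.1e-08), and whose effect was lower in tfl1 than in WT (-5.89, SE 0.34, edgeR adjusted p = 9.35e-07). The type-B regulator gene ARR10 rose in WT (1.57, edgeR adjusted p = 3.22e-07). The receptor gene AHK4 rose in tfl1 (1.49, edgeR adjusted p = 1.27e-05) and in WT (1.47, edgeR adjusted p = 4.83e-06), and its effect was lower in ft than in WT (-1.66, edgeR adjusted p = 3.96e-05). With the length and GC trends removed the counts were 4 and 1 in WT and 3 and 3 in tfl1, beside 56.5% and 42.2% of all genes called in either direction. Of 10 type-A response regulator genes, which are induced by cytokinin and dampen its signal, 9 were tested. None rose and 6 fell in WT, while 6 rose and 1 fell in tfl1 and 1 rose and 2 fell in ft. With those trends removed, 1 rose and 5 fell in WT and 6 rose and 1 fell in tfl1, beside the same 56.5% and 42.2% of all genes. The effect was higher in tfl1 than in WT for 7 of the 9 and lower for none, beside 13.9% of all genes either way, with ARR9 at 2.85 (SE 0.10, edgeR adjusted p = 2.85e-08), and in all 18 libraries for 2 of the 9, beside 4.75% of all genes called. The untreated plants already differed: 7 of the 9 were lower in tfl1 than in WT and 6 in ft, and none higher, beside 12.7% and 19.3% of all genes called lower. After FRP, 2 were higher and 1 lower in tfl1 than in WT, beside 6.38% and 6.53%. In FRP-treated ft 5 were higher and 1 lower, beside 26.1% and 27%.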

How the data were processed

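After trimming with Trimmomatic, the authors mapped reads to TAIR10 with STAR 2.5.3a and counted them per gene with HTSeq 0.7.2 on the Araport11 annotation, without using strand. The deposited files hold these raw counts, 1 file per library, and HTSeq's summary lines, which took 7.98 to 10.88% of each file, were left out. The 12 libraries that the labels mark as analysed are 2 per condition, selected by the authors after principal component analysis, and the reason for each choice is not given in the sources used here. They held 22869487 to 34457807 counts (median 30414722.5).

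A gene was kept when 2 or more of the 12 libraries reached 10 counts, and was tested with edgeR 4.0.16 (R 4.3.3, limma 3.58.1), with TMM scaling and 1 dispersion fit over 6 conditions, with p-values adjusted by the Benjamini-Hochberg method and a threshold of 0.005. The 10 comparisons were FRP against untreated in each genotype, the differences of that effect between genotypes, and the mutants against WT with and without FRP. The coefficient of variation between replicates was 0.0738 over the 12 libraries and 0.161 over all 18. The replicates are separate biological samples, and the sources used here do not say how many plants each pooled. Fold changes with 2 libraries per condition borrow their spread from all 6 conditions. CPM per sample come from all 18 libraries. No 2 libraries held identical counts.

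The 10 genes and all lists were chosen with earlier results of these data known. All 10 genes are named, and from each other list at most 3 genes per comparison, those with the largest change past the threshold. Length and GC trends were removed with splines of 5 degrees of freedom each, fitted per library over the tested genes with a mean log2 CPM above 0 (length and GC content were known for 37051 of the 37336 genes), and DESeq2 1.42.0, other filters, scalings, thresholds and sample sets served as alternatives. The deposited files gave no coordinates, and all coordinates are those of TAIR10.1. The upstream sequence of IPT3 is not reported here. Replicate numbers were checked for pairing: correlations of same-numbered treated and untreated deviations were 0.377, 0.370 and -0.0083 in tfl1, 0.189, 0.175 and -0.0141 in ft, and -0.171, -0.049 and 0.0096 in WT, so that the numbers were not taken to pair samples. The tests were checked on simulated data, in which all genes had the same spread, few were changed and no length trend was present.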

Additional observations from a re-analysis of the deposited data

Results flagged for a closer look

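For 11 results the effect of FRP differed between genotypes by the interaction test (edgeR, adjusted p of at most 0.005). LOG5 had a smaller effect in ft than in WT (-2.53 on the log2 scale) and a larger one in tfl1 than in ft (2.62). IPT3 showed the same directions (-1.83 for ft minus WT and 1.05 for tfl1 minus ft). For LOG1, whose level fell on FRP, the effect was less negative in tfl1 (0.79) and in ft (1.77) than in WT, and more negative in tfl1 than in ft (-0.98). LOG3 (1.09) and LOG8 (0.43) had a higher effect in ft than in WT, and LOG4 (1.21) and CKX3 (2.41) a higher effect in tfl1 than in WT. Those of LOG3, LOG8 and CKX3 were lost in all 18 libraries (edgeR adjusted p = 0.00728, 0.0838 and 0.074), as was that of IPT3 between tfl1 and ft (edgeR adjusted p = 0.0222). With the length and GC trends removed, those of LOG3 (0.18) and LOG4 (0.83) were lost (edgeR adjusted p = 0.477 and 0.0153). The LOG1 differences of tfl1 from WT (0.56) and from ft (-0.38) were lost as well (edgeR adjusted p = 0.0245 and 0.079), and that of LOG8 changed sign (-0.23, edgeR adjusted p = 0.0381).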

How the results depend on the processing

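Up to 28 alternatives were tried. DESeq2 on one genotype per fit gave only the 3 effects of FRP, and 8 of the 9 genes had at least 10 counts in every library. Numbers of genes called moved by over 1.5 times as follows. For most of these alternatives the share of all genes called is not given. A move particular to these genes then cannot be told from a general one. For FRP in ft, 3 genes were called, against 1 with the replicate block in 12 or in all 18 libraries, 1 with DESeq2 on one genotype per fit and 0 when a change of at least 2-fold was required. For tfl1 minus WT, 3 were called, against 0 with only the groups compared and 1 with length and GC trends removed, in 12 or 18 libraries (the 18-library fit was chosen after seeing the data). For ft minus WT, 5 were called, against 3 with the replicate block in 18 libraries. For tfl1 minus ft, 3 were called, against 1 with trends removed in 18 libraries and 6 at an adjusted p of at most 0.05. For untreated tfl1 against WT, 3 were called, against 1 with the replicate block in 12 libraries, 1 with library totals, 0 with only the groups compared, 5 at 0.05 and 1 with a 2-fold minimum. For untreated ft against WT, 5 were called, against 0 in all 18 libraries, 1 with the replicate block in 18 libraries, 2 with library totals, 3 with only the groups compared, 2 with trends removed with or without the block, 1 with trends removed in 18 libraries and 1 with a 2-fold minimum. For FRP-treated tfl1 against WT, 1 was called, against 0 with only the groups compared, 0 with trends removed with or without the block, 2 at 0.05 and 0 with a 2-fold minimum. When 1 of the 12 libraries was left out, the numbers ranged over 0 to 3 for FRP in ft, 0 to 3 for tfl1 minus WT, 0 to 3 for untreated tfl1 against WT, 1 to 5 for untreated ft against WT and 0 to 1 for FRP-treated tfl1 against WT, and the lone library left in a condition was assumed to vary like the others. LOG8 changed sign with trends removed, with trends removed and the block, and with trends removed in 18 libraries: 0.31, 0.31 and 0.31 for FRP in tfl1, 0.33, 0.31 and 0.38 for FRP in WT, -0.23, -0.23 and -0.27 for ft minus WT, and 0.03, 0.03 and 0.08 for untreated ft against WT. The cause of these moves was not tested. The replicate numbers were not taken to pair the samples. Since 5 of 9 samples correlated best with their own number, the correlations do not settle whether the numbers pair them. With library totals the median of all genes was 0.12 for FRP in tfl1, 0.12 for FRP in WT, -0.18 for ft minus WT, 0.12 for tfl1 minus ft and 0.12 for untreated ft against WT, beside 0.02, -0.02, 0.01, -0.03 and -0.01 with TMM. At 9 to 30 counts in each of the 12 libraries for CKX3 and 38 to 77 for LOG7, small changes were not detectable.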
